A study of Mus musculus with 99 samples.

Results

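Gene expression that sets the prefrontal cortex apart from 3 other brain regions was measured in 19 control libraries of a mouse study with 99 libraries. The 5 libraries labelled prefrontal cortex, control, saline-treated were compared with 14 libraries of the same control group, 5 from the nucleus accumbens, 4 from the ventral hippocampus and 5 from the basolateral amygdala. The libraries were chosen by their labels and the sample numbers in the count table, and no expression value entered the choice. The wider study concerned chronic social defeat, in which a mouse is confronted again and again with an aggressor, and the response to drugs. The control mice were given saline. The controls were compared further with 28 libraries of defeated mice given saline, 4 resilient and 3 susceptible in each region. The remaining 52 libraries came from susceptible mice given a drug and sorted by response, in each region 3 of ketamine responders, 3 of ketamine non-responders, 3 of imipramine responders and 4 of imipramine non-responders. Each library held tissue pooled from 2 mice, so that values are averages over cell types and animals. Strain, sex and age are not given in the sources used here, nor is it stated if 1 set of mice gave all 4 regions.

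The prefrontal cortex is part of the neocortex, a layered structure of pallial origin in which most neurons are glutamatergic projection neurons, and which also holds GABAergic interneurons. The nucleus accumbens is a part of the ventral striatum and consists mainly of GABAergic spiny projection neurons that carry dopamine receptors, while the hippocampus and the basolateral amygdala also derive from the pallium. The transcription factors Tbr1 and Fezf2 act in cortical development to set the type of projection neuron and are kept in the adult cortex. In bulk tissue, fewer cells of a type and less RNA per cell cannot be told apart.

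Control libraries held 19018731 to 53202655 counts in genes, and those of the prefrontal cortex 19018731 to 39723998. None of the 36 pairs of control libraries from 1 region was identical, and each differed by more than sampling noise. Libraries grouped by region in multidimensional scaling, where the first dimension held 43.7% of the variance and the second 22.9%. The 5 prefrontal libraries lay at 1.25 to 1.37 on the first dimension and at 1.35 to 1.41 on the second. The ventral hippocampus overlapped them on the first dimension and lay at -1.84 to -1.64 on the second. The accumbens libraries varied in cortical transcripts, with Slc17a7, which encodes a vesicular glutamate transporter, at 231 and 131 CPM (counts scaled to library size) in replicates 4 and 5 and at 9.85 to 40.6 CPM in the other 3. The basolateral amygdala library of replicate 4 stood apart in Ttr, which encodes transthyretin and is abundant in choroid plexus, at 681 CPM against 2.37 to 9.85 CPM in the other 4.

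**Figure D1:**
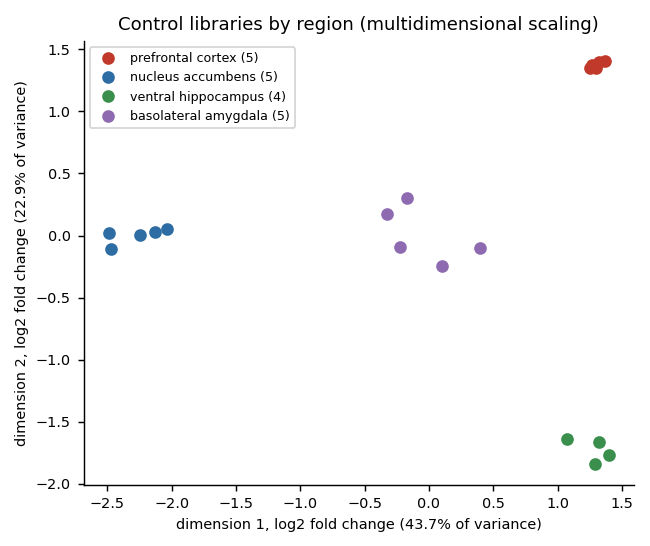
Multidimensional scaling of the 19 control libraries, with 1 point per library and the share of variance on each axis. The 5 prefrontal libraries sit together at the upper right, between 1.35 and 1.41 on the second dimension, apart from every library of the other 3 regions.

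The first comparison asked which genes differ between the prefrontal cortex and the other regions as a whole. Among 17720 genes tested, 4155 were higher in the prefrontal cortex than the mean of the other 3 regions (23.4%) and 4089 were lower (23.1%), at an adjusted p below 0.05 in edgeR's quasi-likelihood test. Against single regions, 56.2% of genes differed from the nucleus accumbens, 41.9% from the ventral hippocampus and 36.1% from the basolateral amygdala. A mean over 3 regions can be carried by 1 of them. Of the genes called against the mean, 346 of the higher and 253 of the lower ones were called in the opposite direction against at least 1 single region. Where the 14 other libraries were fitted as 1 group, 18 of the 115 genes followed by name were no longer called against them, among them Slc17a7, Fezf2, Drd1, Prox1, Grm2 and Gabra3.

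Genes that passed in the same direction against the mean and against each of the 3 regions were therefore counted separately. The prefrontal cortex was higher than each other region for 1415 genes (7.99% of those tested) and lower than each for 1062 genes (5.99%). At least 2-fold in each of the 3 contrasts were 274 of the higher genes (1.55%) and 246 of the lower genes (1.39%). Levels below are CPM, the count of a gene scaled to the library size after TMM normalization, given as mean ± SD over 5 prefrontal, 5 accumbens, 4 hippocampal and 5 amygdala libraries. Differences are log2 fold changes of the prefrontal cortex against the mean of the other regions unless a single region is named. Calls in the gene lists below stand beside 23.4% of all genes tested higher than the mean and 23.1% lower. For calls against each region the shares of all genes are 7.99% and 5.99%. List counts against a single region stand beside the counts over all 17720 genes tested. Of these, 4703 were higher and 5255 lower than in the accumbens. Against the hippocampus 3864 were higher and 3557 lower, and against the amygdala 3225 were higher and 3173 lower.

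Genes of pallial glutamatergic neurons were mostly higher in the prefrontal cortex. Of 20 tested, 18 were higher than the mean of the other regions and 1 was lower, with a median log2 fold change of 1.55 against -0.016 over all genes tested. Against the nucleus accumbens 18 were higher and the median was 3.54, against the basolateral amygdala 16 were higher and the median was 0.86, and against the ventral hippocampus 6 were higher and 7 lower, with a median of 0.10. The 6 genes higher than each other region included Tbr1, Satb1, Mef2c, Fezf2 and Sv2b, the last of which was named after its values were seen. Slc17a7 was not among them. It stood at 1920 ± 153 CPM in the prefrontal cortex and 85.4 ± 95.2 CPM in the accumbens, and at 1670 ± 159 CPM in the hippocampus, where the contrast did not pass (log2 fold change 0.20, adjusted p = 0.826). Nor did Slc17a7 pass against the amygdala, at 1280 ± 302 CPM (log2 fold change 0.59, adjusted p = 0.486).

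Tbr1 (ENSMUSG00000035033), a T-box transcription factor gene of glutamatergic neurons, had 155, 167, 148, 137 and 156 CPM in the prefrontal libraries. The other libraries ranged from 1.78 to 20.1 CPM in the accumbens, 37.2 to 41.0 CPM in the hippocampus and 40.9 to 68.6 CPM in the amygdala, with no overlap. The Tbr1 difference was 2.54 (SE 0.294, adjusted p = 1.85e-06), and 1.46 against the amygdala, the nearest region.

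Fezf2 (ENSMUSG00000021743), a zinc finger transcription factor gene of neurons that project below the cortex, had 45.4, 62.4, 42.9, 48.2 and 73.7 CPM in the prefrontal libraries. It was at 1.67 to 3.68 CPM in the accumbens, 22.3 to 25.0 CPM in the hippocampus and 21.3 to 39.9 CPM in the amygdala. The lowest prefrontal library was thus close to the highest amygdala library, and the difference from the amygdala was 0.90 (adjusted p = 0.00111). Mef2c (ENSMUSG00000005583), a MADS-box transcription factor gene that responds to neuronal activity, had 880 to 1050 CPM in the prefrontal libraries and at most 423 CPM elsewhere (log2 fold change 2.36, SE 0.0687, adjusted p = 3.36e-16). Satb1, which encodes a chromatin organiser, stood at 168 ± 14.6 CPM against 25.8 ± 5.71 CPM in the accumbens, 77.0 ± 2.82 CPM in the hippocampus and 80.9 ± 11.3 CPM in the amygdala.

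The start regions of 4 of these higher genes are shown because the genes were raised together in the same tissue. The 250 bases before the annotated start were taken from RefSeq (GRCm38.p6, a later build than that of the counts) and searched on both strands for CAGATG, an E-box of the NeuroD type, for AGGTGTGA, a T-box site, and for TGACGTCA, the cyclic AMP response element. Of the 115 genes followed by name in the text, 89 had an entry in the promoter table. Matches are in capitals. Mef2c and Cux2, an upper-layer gene described below, were shown because 1 of their listed start windows (3 for Mef2c, 2 for Cux2) held a match.
Tbr1, chr2:61804203-61804452, plus strand: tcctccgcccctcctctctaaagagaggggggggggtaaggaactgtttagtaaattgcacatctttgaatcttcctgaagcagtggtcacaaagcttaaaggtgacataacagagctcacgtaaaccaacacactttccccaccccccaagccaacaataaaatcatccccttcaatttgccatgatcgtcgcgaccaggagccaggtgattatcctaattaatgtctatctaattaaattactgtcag
Fezf2, chr14:12345866-12346115, minus strand: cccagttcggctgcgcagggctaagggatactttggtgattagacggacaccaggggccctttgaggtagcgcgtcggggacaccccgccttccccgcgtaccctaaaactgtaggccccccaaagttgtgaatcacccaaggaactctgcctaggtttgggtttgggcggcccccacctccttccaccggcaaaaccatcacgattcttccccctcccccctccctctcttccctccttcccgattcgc
Mef2c, chr13:83573357-83573606, plus strand: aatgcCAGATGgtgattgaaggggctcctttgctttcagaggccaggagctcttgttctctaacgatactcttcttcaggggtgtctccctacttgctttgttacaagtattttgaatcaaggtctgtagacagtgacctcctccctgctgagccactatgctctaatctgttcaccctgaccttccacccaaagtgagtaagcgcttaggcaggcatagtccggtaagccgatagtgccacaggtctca
Cux2, chr5:122047826-122048075, minus strand: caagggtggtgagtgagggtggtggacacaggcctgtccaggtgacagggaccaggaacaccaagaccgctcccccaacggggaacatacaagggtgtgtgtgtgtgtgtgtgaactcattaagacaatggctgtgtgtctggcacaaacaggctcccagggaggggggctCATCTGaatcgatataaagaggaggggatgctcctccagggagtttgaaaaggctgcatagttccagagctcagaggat
The Tbr1 and Fezf2 windows held none of the 3 motifs. The match in Mef2c began 245 bases before the start and that in Cux2 79 bases before it, on the opposite strand. CAGATG or its reverse complement was present in 14.4% of all 32851 windows of this length, AGGTGTGA in 1.12% and TGACGTCA in 1.55%, so the matches are described only as letters in these windows.

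**Figure D2:**
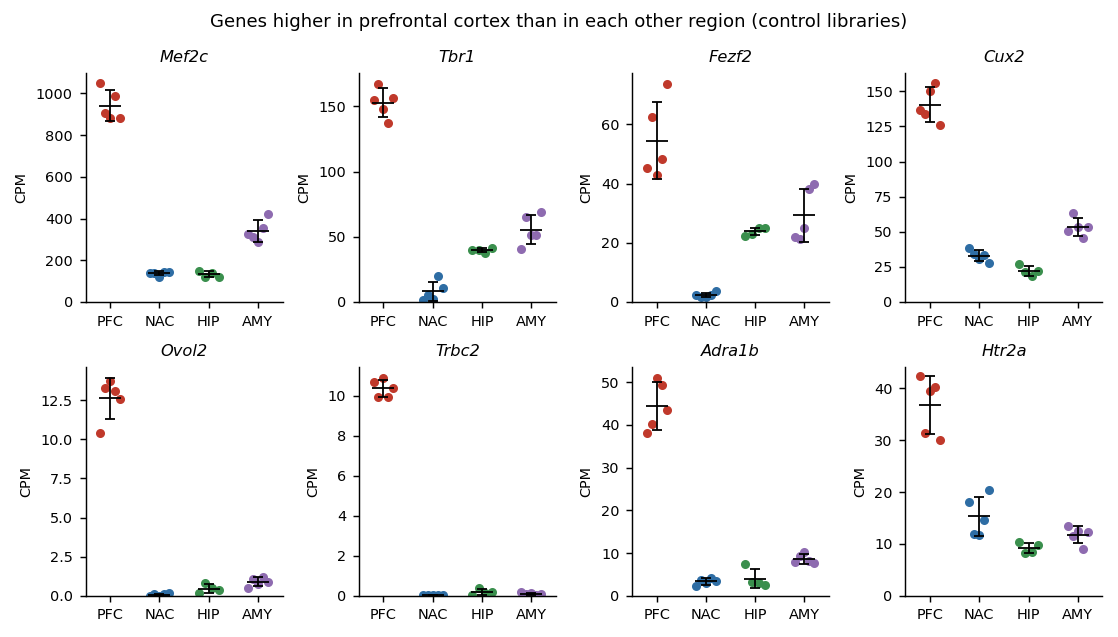
Levels in CPM (linear axis from 0) of 8 genes higher in the prefrontal cortex (PFC) than in the nucleus accumbens (NAC), ventral hippocampus (HIP) and basolateral amygdala (AMY), with 1 point per control library, and the mean and SD as a line and bars. In each panel all 5 prefrontal points lie above all 14 others, with Fezf2 the closest, at 42.9 CPM against 39.9 CPM.

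Genes that mark cortical layers did not move as a block. Of 16 upper-layer genes tested, 8 were higher than the mean (50%) and 4 lower (25%), with a median of 0.21, and 5 were higher than each region. Cux2 (ENSMUSG00000042589), a homeobox gene of upper-layer neurons, had 126 to 156 CPM in the prefrontal libraries and at most 63.5 CPM elsewhere (log2 fold change 2.05, SE 0.0763). Rorb, a nuclear receptor gene prominent in layer 4 of sensory areas, was higher than each region by less, at 21.8 ± 3.60 CPM against 10.8 ± 1.48, 11.4 ± 2.27 and 13.7 ± 1.13 CPM in the accumbens, hippocampus and amygdala. Lmo4, which encodes a LIM-only cofactor, and Lamp5, a lysosome-associated membrane protein gene used as a marker of upper layers and of some interneurons, were higher than each region at 1.35 and 1.75. Mdga1, a cell-surface gene of upper-layer neurons, went the other way, at 19.5 ± 3.71 CPM in the prefrontal cortex and 40.0 ± 3.60, 122 ± 8.43 and 61.9 ± 10.2 CPM in the others, and it was lower than each (log2 fold change -1.79, SE 0.112).

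Among 17 genes of layer 5, 9 were higher than the mean (52.9%) and 3 lower (17.6%), with a median of 0.27. Tox, an HMG-box factor gene, stood at 45.5 ± 9.80 CPM against at most 22.6 CPM in any other library. Rbp4, the plasma retinol-binding protein gene used to mark layer 5, was at 17.8 ± 0.852 CPM, and the nearest region was the accumbens with 10.9 ± 1.59 CPM. Sulf2, which encodes an extracellular sulfatase, was higher than each region (log2 fold change 1.09, SE 0.0616). Bcl11b (ENSMUSG00000048251), also called Ctip2 and a marker of layer 5 within the cortex, was lower than each region. It had 77.7, 90.1, 58.9, 70.3 and 108 CPM in the prefrontal libraries, 322 to 382 CPM in the accumbens, 181 to 225 CPM in the hippocampus and 118 to 169 CPM in the amygdala. No library overlapped, and the log2 fold change was -1.38 (SE 0.117, adjusted p = 5.88e-09). Bcl11b is also a gene of striatal spiny neurons and of hippocampal neurons.

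Among 19 genes of layer 6 and the subplate, 8 were higher than the mean (42.1%) and 5 lower (26.3%), with a median of 0.25. Sla, a Src-like adaptor gene, and Col5a1, a collagen V chain gene, were higher than each region, yet their prefrontal libraries overlapped those of the amygdala. Sla ranged from 6.61 to 16.5 CPM in the prefrontal cortex and from 4.36 to 9.21 CPM in the amygdala, and Col5a1 from 14.2 to 38.9 and from 9.17 to 16.7 CPM. Foxp2, a forkhead gene of layer 6 and of striatal neurons, did not pass against the mean (log2 fold change -0.50, adjusted p = 0.254), with -3.30 against the accumbens and 2.65 against the hippocampus. Tle4, a corepressor gene of layer 6, was lower against the mean by a small amount (-0.27, SE 0.0762), and was higher than the amygdala by 0.47.

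Genes that pattern cortical areas were split, with 8 of 16 higher than the mean (50%) and 7 lower (43.8%). Etv5, an ETS factor gene induced by fibroblast growth factor signalling, was higher than each region at 180 ± 16.7 CPM against 68.3 to 91.8 CPM as means elsewhere. Efna5, an ephrin ligand gene, was higher than each as well, at 8.37 ± 0.709 CPM against 1.14 to 4.02 CPM as means elsewhere. Lmo3, a LIM-only gene that also stands in the amygdala list, was lower than each (log2 fold change -1.57, SE 0.0945). Nr2f1, a nuclear receptor gene that is low in frontal areas in the developing cortex, was higher than the accumbens by 2.94 and the hippocampus by 0.38 and lower than the amygdala (-0.21), at 73.8 ± 4.67 CPM against 56.6 ± 1.83 and 85.2 ± 6.97 CPM.

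Genes that define the other regions were lower in the prefrontal cortex, mostly against the region they mark. All 20 striatal projection neuron genes were lower than in the accumbens (median -4.28), while 1 was lower and 7 were higher than in the hippocampus. The summed level of the striatal list was 708 to 751 CPM in the prefrontal libraries and 9460 to 12500 CPM in the accumbens. Drd1, a dopamine receptor gene of the direct pathway, was at 11.7 ± 3.71 CPM against 261 ± 29.4 CPM in the accumbens, and was higher than in the hippocampus by 1.21. Drd2, the dopamine receptor gene of the indirect pathway, was at 1.59 ± 0.604 CPM against 249 ± 32.0 CPM in the accumbens. Pde10a, Rarb and Adcy5, a phosphodiesterase, a retinoic acid receptor and an adenylyl cyclase gene of spiny neurons, were lower than in the accumbens by -3.77, -4.09 and -3.15.

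Of 17 hippocampal genes, 15 were lower than in the hippocampus (median -3.02) and 11 were lower than the mean. Prox1, a homeobox gene of dentate granule cells, was at 11.9 ± 0.915 CPM against 149 ± 9.99 CPM in the hippocampus and 14.0 ± 1.27 CPM in the accumbens. Fibcd1, Spink8 and Nr3c2, the last encoding the mineralocorticoid receptor, were lower than each other region. Nr3c2 had 31.3 to 36.6 CPM in the prefrontal libraries and 241 to 285 CPM in the hippocampus, and at least 40.5 CPM elsewhere. Of 15 amygdala genes, 12 were lower than in the amygdala (median -2.26). Cyp26b1, which encodes a retinoic acid hydroxylase, was at 2.43 ± 0.785 CPM against 127 ± 44.6 CPM in the amygdala, and Dlk1, an imprinted Notch ligand gene, at 0.984 ± 0.578 against 52.9 ± 11.3 CPM there and 149 ± 33.4 CPM in the accumbens. Rspo2, a Wnt agonist gene of the same list, did not follow it. It was at 43.2 ± 6.59 CPM in the prefrontal cortex against 30.1 ± 12.1 CPM in the amygdala (log2 fold change 0.53, adjusted p = 0.128), 10.0 ± 1.45 CPM in the hippocampus and 0.71 ± 0.51 CPM in the accumbens.

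Of 16 thalamic and hypothalamic genes, 8 were lower than the mean (50%) and 2 higher (12.5%, and 1 gene with DESeq2). Tcf7l2, a Wnt-pathway factor gene of the thalamus, was at 3.46 ± 0.620 CPM and 5.82 to 7.37 CPM as means elsewhere. The highest mean, that of the hippocampus, was carried by replicate 1 at 16.9 CPM. The remaining hippocampal libraries, at 3.51 to 5.11 CPM, overlapped the prefrontal ones at 2.58 to 4.23 CPM. Tcf7l2 did not pass without prefrontal replicate 3 (adjusted p = 0.0689, against 0.0244 with all libraries). Lhx9, a LIM homeobox gene, was at 0.378 ± 0.225 CPM against 19.7 ± 3.40 CPM in the hippocampus. Ramp3, an accessory protein gene of calcitonin-family receptors, was higher than each region (log2 fold change 1.83, SE 0.23). Its prefrontal libraries, from 12.7 CPM, overlapped hippocampal replicate 1 at 13.3 CPM, while the remaining hippocampal libraries had 2.67 to 4.82 CPM. Of 16 transcription factor genes of the subpallium, 8 were lower than the mean and 0 higher. Sp9 stood at 4.41 ± 0.511 CPM against 37.3 ± 2.29 CPM in the accumbens, Meis1 at 1.61 ± 0.270 against 7.94 ± 1.36 CPM and Nkx2-1 at 0.471 ± 0.132 against 7.89 ± 1.72 CPM. Sp9 and Nkx2-1 were lower than each region, and 0 of the list were without prefrontal replicate 5. Nkx2-1 overlapped the hippocampus, at 0.388 to 0.704 CPM against 0.65 to 0.92 CPM there, and had 60 counts over the 5 prefrontal libraries.

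Beyond the marker lists, the genes with the largest difference from their nearest region included several of low abundance. Trbc2 (ENSMUSG00000076498), a constant segment gene of the T cell receptor beta chain, had 10.7, 9.95, 10.9, 9.96 and 10.4 CPM in the prefrontal libraries. Every other library was at 0.407 CPM or below, and the log2 fold change was 6.75 (SE 0.181, adjusted p = 1.23e-16). Trbc2 has a near-identical copy, Trbc1, so the split of reads between them is uncertain. Ovol2 (ENSMUSG00000037279), a zinc finger repressor gene known from epithelia, had 10.4, 13.3, 13.7, 13.1 and 12.6 CPM in the prefrontal libraries. It had at most 1.22 CPM elsewhere and no count in 2 accumbens libraries, and its log2 fold change was 5.35 (SE 0.215).

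Krt80, a keratin gene, followed with 4.38 to 9.77 CPM in the prefrontal libraries and at most 0.813 CPM elsewhere (log2 fold change 4.37, SE 0.19). Ccn4, a matricellular protein gene, Pparg, a nuclear receptor gene known from fat cells, and Tmem232 were at 6.53 ± 1.61, 5.96 ± 1.33 and 7.11 ± 1.21 CPM and below 2 CPM in every other library. Aldh1a3, which encodes an enzyme that makes retinoic acid, was at 6.71 ± 0.701 CPM against 0.456 to 0.892 CPM as means elsewhere. Dpp4, a dipeptidyl peptidase gene, and Arhgap25, a GTPase-activating protein gene, were higher by 2.77 (SE 0.124) and 2.67 (SE 0.168). Sowahb was the most abundant of the group, at 35.7 ± 3.26 CPM against 2.65 to 6.35 CPM as means elsewhere. Slc22a6, an organic anion transporter gene, was at 6.86 ± 1.89 CPM, with 1 accumbens library at 3.07 CPM among 14 others that were otherwise at 2.09 CPM or below.

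Of the genes lower than each region, Doc2b (ENSMUSG00000020848), a calcium sensor gene of synaptic vesicle release, was the most abundant one named by the size of its difference. It had 18.1, 16.0, 15.7, 17.7 and 23 CPM in the prefrontal libraries and 114 to 178 CPM in all 14 others. The groups were far apart, at -2.96 on the log2 scale (SE 0.102), with contrasts of -3.11, -2.95 and -2.82 with the accumbens, hippocampus and amygdala. Gpr101 (ENSMUSG00000036357), an orphan G protein-coupled receptor gene, had 0.179 to 0.634 CPM in the prefrontal libraries, 18.4 to 73.7 CPM in the accumbens and amygdala and 2.57 to 5.21 CPM in the hippocampus. Nts, the neurotensin gene, had 0.108 to 0.353 CPM in the prefrontal libraries, 13.8 to 35.2 CPM in the accumbens and amygdala and 0.623 to 2.2 CPM in the hippocampus. Both were nearest to the hippocampus and did not overlap it.

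Ndst4, a heparan sulfate sulfotransferase gene, was at 0.901 ± 0.0667 CPM against 5.83 to 22 CPM as means elsewhere. Slitrk6, a synaptic adhesion gene, Vit, which encodes the matrix protein vitrin, and Col6a5, a collagen VI chain gene, were at 0.329 ± 0.0722, 0.401 ± 0.238 and 0.504 ± 0.183 CPM, below all 14 other libraries. At the lowest levels the prefrontal values rest on few counts. Igfbpl1 had 7 counts over the 5 prefrontal libraries, Frem3 had 5, and Ccdc153, a gene of ciliated ependymal cells, had 4. Their means were 0.0461, 0.0346 and 0.0268 CPM, against 1.65 to 4.21, 1.31 to 7.69 and 2.26 to 7.03 CPM as means elsewhere. No fold change is given for these 3 genes, since it would depend on the fit at so few counts.

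**Figure D3:**
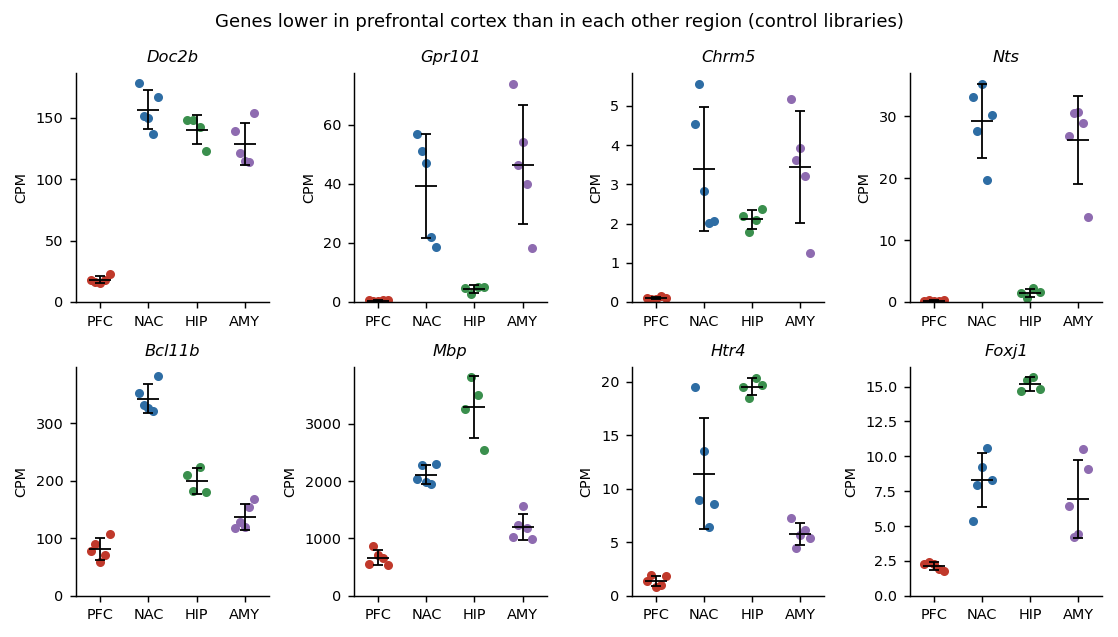
Levels in CPM (linear axis from 0) of 8 genes lower in the prefrontal cortex (PFC) than in the nucleus accumbens (NAC), ventral hippocampus (HIP) and basolateral amygdala (AMY), with 1 point per control library, and the mean and SD as a line and bars. The prefrontal points lie below all others in every panel, and the amygdala is nearest for Bcl11b and Mbp and the hippocampus for Gpr101 and Nts.

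Genes of myelinating oligodendrocytes were lower in the prefrontal cortex than in each other region. Of 18 tested, 17 were lower than the mean and all of these 17 were lower than each region, with a median of -1.59. Summed over the list, the prefrontal libraries had 1530 to 2360 CPM, the amygdala 2760 to 4120 CPM, the accumbens 5060 to 6180 CPM and the hippocampus 6690 to 9480 CPM. Mbp (ENSMUSG00000041607), the myelin basic protein gene, had 558, 866, 703, 667 and 542 CPM in the prefrontal libraries and 998 CPM or more in each of the others. The amygdala was nearest, with 998 to 1560 CPM, and the log2 fold change was -1.60 (SE 0.121, adjusted p = 1.13e-09). Mal, which encodes a membrane protein of myelin, was lower by -1.70 (SE 0.108). Olig1, a factor gene of the whole lineage, was lower by less (-0.71, SE 0.0846). The precursor list was less uniform, with 8 of 11 genes lower than the mean and 2 higher (median -0.44), and 4 lower than each region. Without prefrontal replicate 5, 8 genes of the precursor list were lower than the mean and 0 higher (median -0.47). Against the hippocampus 4 of its genes were lower and 2 higher, with a median of -0.06.

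Genes of ependymal cells, the ciliated lining of the ventricles, were lower as well, 11 of 12 against the mean and 9 against each region, with a median of -2.14. Foxj1, the master factor gene of motile cilia, had 1.74 to 2.43 CPM in the prefrontal libraries and 4.18 to 15.7 CPM in the others. Ak7, a ciliary adenylate kinase gene, was at 0.214 ± 0.137 CPM against 3.17 to 7.73 CPM as means elsewhere. Of 11 choroid plexus genes 7 were lower than the mean and 0 higher. Kl, the klotho gene, was at 2.25 ± 0.398 CPM and was the 1 member lower than each region, while 3 members were without amygdala replicate 4 and 3 with DESeq2. Ttr did not pass against the mean (log2 fold change -2.47, SE 1.51, adjusted p = 0.199), at 0.247 to 5.84 CPM in the prefrontal libraries. The part of ventricular tissue in these differences was not tested.

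Of 17 genes in a joint list of mural and meningeal cells, 8 were higher than the mean, 0 lower and 9 neither, with a median of 0.49. Against the accumbens 9 were higher and 1 lower, and against the amygdala 10 were higher and 1 lower. The 7 higher than each region were Col1a1, Col1a2, Foxc1, Slc6a13 and, named after their values were seen, Col3a1, Igf2 and Ogn, and 5 members were without prefrontal replicate 5. The list's markers of pericytes and smooth muscle were not among these 7. Col1a2, a collagen I chain gene of fibroblasts, had 17.1, 17.8, 19.8, 24 and 26.5 CPM in the prefrontal libraries and 4.74 to 13.4 CPM in the others, with no overlap (log2 fold change 1.59, SE 0.12). Col1a1 and Foxc1, a forkhead gene of meningeal development, were higher by 0.84 and 0.89, and Slc6a13, a GABA transporter gene of the meninges, by 1.40. The summed list was 288 to 364 CPM in the prefrontal cortex, 210 to 284 CPM in the accumbens, 247 to 283 CPM in the hippocampus and 217 to 320 CPM in the amygdala. Slc22a6, described above, is also expressed in meninges, and the part of meningeal tissue in its difference was not tested.

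Other glial and vascular lists held fewer calls. Of 16 microglial genes, 0 passed against the mean in edgeR, 0 had an unadjusted p below 0.05 and 0 passed in DESeq2 (median -0.12), with Cx3cr1, the fractalkine receptor gene, at 50.5 ± 2.52 CPM and 52.3 to 57.1 CPM as means elsewhere. Of 15 endothelial genes, 2 were higher (13.3%) and 0 lower, or 1 higher without prefrontal replicate 5. Without amygdala replicate 4, or with a covariate for the series of sample numbers, 3 endothelial genes were higher (20%). Cldn5, a tight junction gene, was at 36.3 ± 7.21 CPM (log2 fold change 0.18, adjusted p = 0.191). Cldn5 passed without prefrontal replicate 2 (adjusted p = 0.0285). Of 18 astrocyte genes, 3 were higher (16.7%) and 5 lower (27.8%), beside 23.4% and 23.1% of all genes tested. Agt, the angiotensinogen gene, was lower than each region (log2 fold change -2.29, SE 0.363), Gjb6, a connexin gene, was higher than the mean (0.69, SE 0.0956), and Gfap ranged from 60.9 to 151 CPM and did not pass (adjusted p = 0.199).

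**Figure D4:**
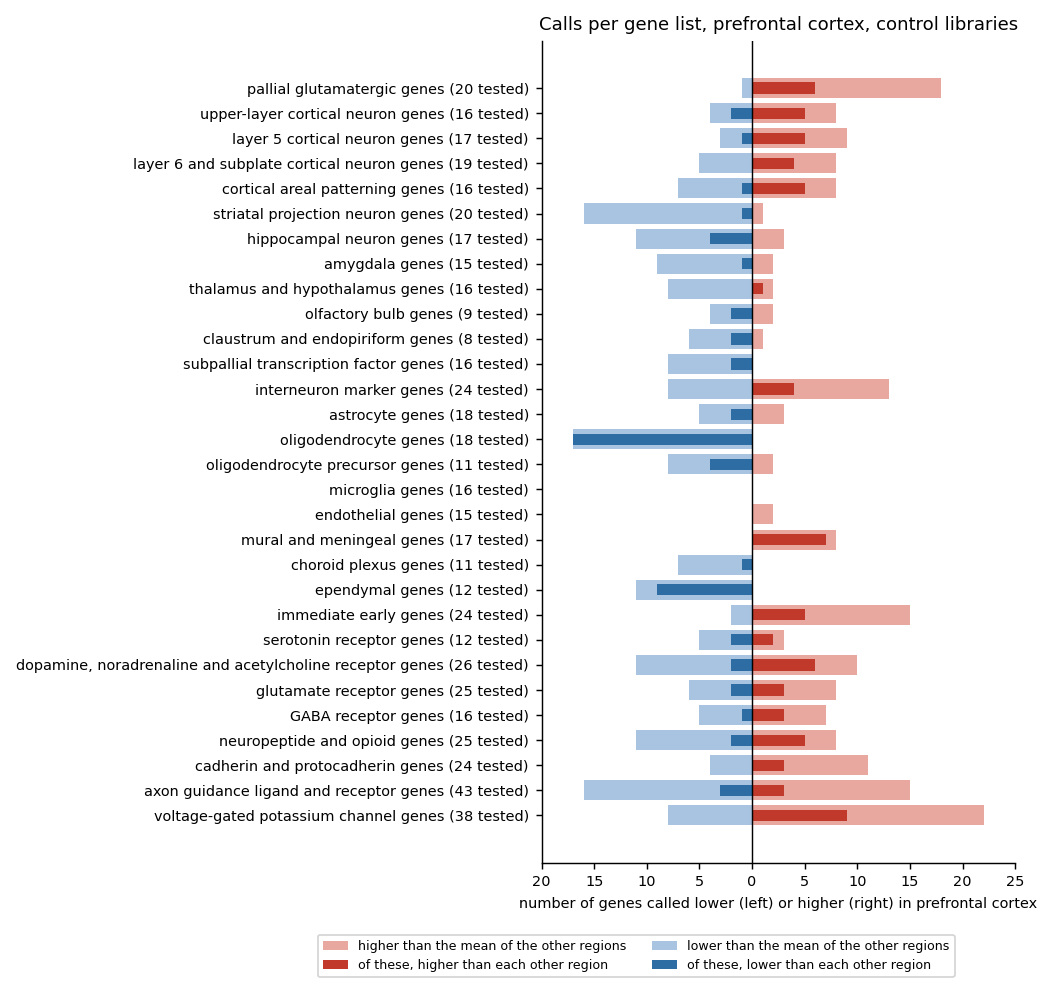
Number of genes called in the prefrontal cortex for each of 30 gene lists in the control libraries, with higher genes to the right of 0 and lower genes to the left. Light bars count calls against the mean of the other regions and dark bars those that also held against each region, which were all of the oligodendrocyte calls (17 of 17) and a minority of the striatal ones (1 of 16, and 3 with DESeq2).

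Interneuron genes were mixed, with 13 of 24 higher than the mean (54.2%) and 8 lower (33.3%). Vip, the vasoactive intestinal peptide gene of one interneuron class, had 53.5, 43.4, 53.5, 50.2 and 42.9 CPM in the prefrontal libraries, 1.36 to 3.71 CPM in the accumbens, 7.14 to 10.8 CPM in the hippocampus and 17.0 to 28.3 CPM in the amygdala. The groups did not overlap, and the log2 fold change was 2.67 (SE 0.144, adjusted p = 1.35e-11). Pvalb, the parvalbumin gene of fast-spiking interneurons, was at 32.3 ± 8.63 CPM against 26.5 ± 1.62 CPM in the hippocampus, which it did not pass (adjusted p = 0.256), and 4.82 ± 0.260 CPM in the accumbens. Kcnc2, a potassium channel gene of the same cells, was higher than the mean by 1.19 (SE 0.0811). Sst, the somatostatin gene, did not pass against the mean (log2 fold change -0.08, adjusted p = 0.369). Gad1, a GABA-synthesising enzyme gene, was at 320 ± 30.6 CPM against 689 ± 33.5 CPM in the accumbens and 318 ± 13.8 CPM in the hippocampus.

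Of 12 serotonin receptor genes, 3 were higher than the mean (25%, beside 23.4% of all genes) and 5 lower (41.7%, beside 23.1%). Htr2a (ENSMUSG00000034997), which encodes the receptor on which classical hallucinogens act, had 42.4, 31.4, 39.4, 40.3 and 30.1 CPM in the prefrontal libraries. It had 11.7 to 20.3 CPM in the accumbens, 8.32 to 10.4 CPM in the hippocampus and 9.05 to 13.5 CPM in the amygdala, with no overlap (log2 fold change 1.63, SE 0.111, adjusted p = 1.77e-10). Htr5a was higher than each region by a smaller step, 0.94 (SE 0.0667). Htr4, a receptor gene coupled to cyclic AMP production, had 0.788 to 1.90 CPM in the prefrontal libraries and 4.51 to 20.4 CPM in the others (log2 fold change -2.94, SE 0.256). Htr2c was lower than each region but overlapped the hippocampus, at 15.3 to 28.6 CPM against 27.6 to 38.4 CPM there and 139 to 179 CPM in the accumbens and amygdala.

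Of 26 dopamine, noradrenaline and acetylcholine receptor genes, 10 were higher than the mean (38.5%) and 11 lower (42.3%). Adra1b (ENSMUSG00000050541), an alpha-1 adrenergic receptor gene, had 38.2, 40.3, 51.1, 49.4 and 43.5 CPM in the prefrontal libraries. Other libraries ranged from 2.22 to 10.3 CPM, well below, and the log2 fold change was 3.17 (SE 0.154, adjusted p = 3.1e-12). Adra1d, its paralog, was at 45.1 ± 4.01 CPM but lower than the hippocampus with 64.6 ± 4.17 CPM. Adrb1, a beta adrenergic receptor gene, had 32.0 to 36.6 CPM against 13.8 to 20.6 CPM elsewhere. Chrnb3, a nicotinic subunit gene, was at 2.50 ± 0.704 CPM and at most 0.623 CPM elsewhere. Chrm5 (ENSMUSG00000074939), a muscarinic receptor gene known from dopamine neurons, had 13 counts in all over the 5 prefrontal libraries, or 0.0705 to 0.146 CPM, against 1.25 to 5.56 CPM in the others (log2 fold change -4.84, SE 0.455).

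Of 25 glutamate receptor genes, 8 were higher than the mean (32%) and 6 lower (24%), beside 23.4% and 23.1% of all genes tested, so that the lower share lay near that of all genes. The count of higher genes depended on the setting. It was 11 with DESeq2 (44%), 10 with a covariate for the series of sample numbers (40%) and 7 without prefrontal replicate 5 (28%). Gria1, an AMPA receptor subunit gene, had 399 to 516 CPM in the prefrontal libraries and was lower than each region (log2 fold change -0.97, SE 0.0604), with 1260 to 1400 CPM in the hippocampus. Gria4, another subunit of the same receptor, was higher than each at 128 ± 12.0 CPM against 54.8 to 102 CPM as means elsewhere. Grm2, an inhibitory presynaptic receptor gene, was higher than each (1.96, SE 0.13), while Grm8 did not pass against the amygdala, at 33.8 ± 4.59 against 31.2 ± 3.58 CPM (0.12, SE 0.135). Of 16 GABA receptor genes, 7 were higher (43.8%) and 5 lower (31.2%). Gabrb2 and Gabbr2, subunit genes of the GABA-A and of the GABA-B receptor, were higher than each region at 0.64 and 1.09. Gabra3 was higher than the mean (1.32, SE 0.0643) but did not pass against the amygdala, at 200 ± 17.7 against 221 ± 20.1 CPM.

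Of 25 neuropeptide and opioid genes, 8 were higher than the mean (32%) and 11 lower (44%), with a median of -0.14. Adcyap1, which encodes the peptide PACAP, had 46.4, 37.0, 43.2, 47.1 and 39.3 CPM in the prefrontal libraries, 10.6 to 31.7 CPM in the amygdala and at most 2.69 CPM in the accumbens and hippocampus. The groups did not overlap (log2 fold change 3.84, SE 0.294). Grp, the gastrin-releasing peptide gene, was at 10.6 ± 4.02 CPM against 13.2 ± 2.41 CPM in the amygdala and 0.0853 ± 0.0267 CPM in the accumbens. Of 43 axon guidance genes, 15 were higher (34.9%) and 16 lower (37.2%). Ephb6, an Eph receptor gene whose product lacks kinase activity, had 251 to 348 CPM in the prefrontal libraries and 55.2 to 89.4 CPM in all others (log2 fold change 2.01, SE 0.0742). Ephb3 was higher than each region at 1.09, and Unc5b, a netrin receptor gene, lower than each at -1.20.

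Adhesion and potassium channel genes leaned to higher values against the mean of the other regions. Of 24 cadherin and protocadherin genes, 11 were higher than the mean (45.8%) and 4 lower (16.7%), and 3 were higher than each region. The lean did not hold against the amygdala alone, where 5 were higher and 8 lower, with a median of -0.1. Cdh10 and Pcdh15 were higher than each region at 0.97 (SE 0.0531) and 1.08 (SE 0.0544), and Cdh9 was lower than the mean (-0.81, SE 0.105). Of 38 voltage-gated potassium channel genes, 22 were higher and 8 lower, with a median of 0.46, and 9 were higher than each region and 0 lower than each (in DESeq2 12 and 0). Kcnh7, an ERG-type channel gene, had 212, 152, 139, 169 and 133 CPM in the prefrontal libraries and 19.2 to 64.2 CPM in the others, with no overlap (log2 fold change 1.92, SE 0.0978). Kcns1, a modulatory subunit gene, was higher than each at 17.6 ± 2.05 CPM against 6.45 to 11.9 CPM as means elsewhere. Kcnf1, another modulatory subunit, was higher than the mean (1.17, SE 0.0701) and overlapped the amygdala, with 221 to 285 CPM against 183 to 267 CPM.

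Immediate early genes, which neurons transcribe within minutes of activity, were higher in 15 of 24 cases and lower in 2, with a median of 0.78. Without prefrontal replicate 5, 11 were higher and 3 lower, with a median of 0.62. Egr3, Ier2 and Ier5 were higher than each region, at 0.91 (SE 0.0916), 1.24 (SE 0.143) and 1.22 (SE 0.102), with no overlap of libraries. Fos, the best known of these genes, had 13.0, 23.8, 5.01, 9.67 and 27.9 CPM in the prefrontal libraries. It had 2.29 to 17.8 CPM in the others, so the groups overlapped, and the difference from the mean (1.09, SE 0.305, adjusted p = 0.007) did not pass without prefrontal replicate 5 (adjusted p = 0.0538). Arc, whose product acts in glutamate receptor traffic, had 91.5, 159, 52.5, 88.2 and 164 CPM and did the same (0.77, SE 0.225, and adjusted p = 0.0531 without that library). In both genes prefrontal replicates 2 and 5 were the highest and replicate 3 the lowest. Bdnf, a neurotrophin gene, was higher than the mean (1.82, SE 0.168) but not than the hippocampus, at 52.2 ± 10.6 against 64.2 ± 7.53 CPM, and was at 1.43 ± 0.835 CPM in the accumbens.

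The same contrasts were then made in the 28 libraries of defeated mice given saline, which had no part in choosing the genes. There, 1801 of 17802 genes tested were higher in the prefrontal cortex than in each other region (10.1%) and 1715 were lower (9.63%). Of the 1415 genes higher in controls, 1237 were again higher than each region (87.4%), and of the 1062 lower genes 909 were again lower (85.6%). Of the genes with at least a 2-fold difference from each region, 254 of 274 higher and 208 of 246 lower genes were called again. Of the genes tested in both, 1406 of 1407 higher and 1057 of 1058 lower genes had the same sign against the mean.

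Against the mean of the other regions in defeated mice, Tbr1 was higher by 2.00, Ovol2 by 4.78, Trbc2 by 6.37, Adra1b by 3.15 and Htr2a by 1.34. Doc2b stood at -2.92, Gpr101 at -5.07, Chrm5 at -4.43, Bcl11b at -1.31 and Mbp at -1.82. The oligodendrocyte list had 17 of 18 genes lower (median -1.78), and the microglial list had 7 of 16 lower (median -0.21) where controls had 0, a difference not tested as a list. Whether the prefrontal contrast itself differed between defeated and control mice was tested in 47 libraries. Of 18455 genes, 0 passed in edgeR (0%), with 701 at an unadjusted p below 0.05, and 0 passed in DESeq2.

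**Figure D5:**
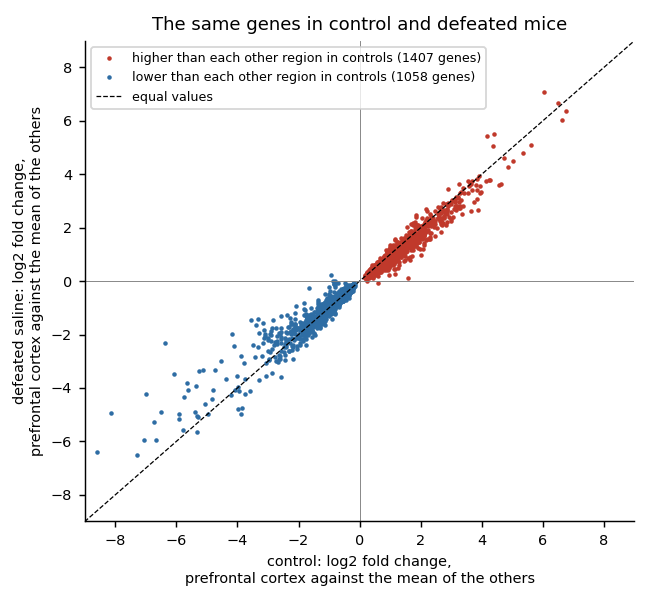
Log2 fold change of the prefrontal cortex against the mean of the other 3 regions in control mice (horizontal) and in defeated mice given saline (vertical), for the 1407 genes higher and 1058 genes lower than each other region in controls that were also tested in defeated mice. Points lie along the dashed line of equal values, and all but 1 gene in each direction kept their sign.

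In the 80 libraries of all states other than control, of which 28 were of defeated mice given saline and 52 of susceptible mice given ketamine or imipramine, the 20 prefrontal libraries were compared with the 60 others without a model. Every prefrontal library was above every other one for 450 of 17720 genes (2.54%) and below for 140 (0.79%). Of the 274 higher genes with at least a 2-fold difference, 149 were separated in this way, and of the 246 lower ones 56. Mef2c ranged from 793 to 1000 CPM in these prefrontal libraries and from 106 to 393 CPM in the rest. Doc2b ranged from 10.3 to 20.9 CPM against 80.6 to 225 CPM. Bcl11b was lower on average but not separated, at 65.5 to 101 CPM against 80.0 to 394 CPM.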

How the data were processed

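The deposited table held raw counts of reads per gene for 99 libraries, and the authors' counts were whole numbers without normalization. Libraries were made from poly-A RNA with a kit that does not mark strand and read as 50-base pairs, per the labels' protocols, so genes that overlap on opposite strands cannot be told apart. Bowtie2 2.1.0, TopHat2 2.0.9, HTSeq 0.6.0 and the build NCBIM37 are named in the submitters' processing notes. Columns were matched to libraries by the sample number in the header, and 0 value columns were left without a match. Symbols were found for 32919 of 37991 gene IDs (86.6%).

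The 19 control libraries were fitted in R 4.3.3 with edgeR 4.0.16 (quasi-likelihood F-test, robust), with TMM scaling, a filter on low counts (filterByExpr, minimum count 10) and 1 mean per region. p-values were adjusted over all 17720 genes with the Benjamini-Hochberg method. Defeated mice were fitted apart, with resilient or susceptible state as a covariate. p-values rest on the spread between libraries, each pooled from 2 mice, and the fit treats all libraries as independent. Since it is not stated if 1 set of mice gave several regions, shared mice were not modelled. On simulated counts with 17475 genes, the contrast with the mean recovered 34 of 50 genes changed 1.5-fold, 47 of 50 changed 2-fold and 50 of 50 changed 4-fold, and called 9 of 17276 unchanged genes. Against each region it recovered 28, 43 and 47 of the 50, and called 0 unchanged genes. Each simulated gene had 1 level in all regions, apart from the genes changed in the prefrontal cortex. False calls where the other regions differ among themselves were therefore not measured. Of 49 genes lowered to 0.5 of their level, 42 were recovered against the mean and 38 against each region.

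Genes were named by a rule: the 12 in each direction with the largest difference from their nearest region, up to 4 members of each of 30 lists with the smallest p, and a set of fixed markers. The contrasts, gene lists and markers were chosen with earlier results of these data known. Alternatives were median-ratio scaling, no filter, DESeq2 1.42.0, a covariate for the series of sample numbers, the 14 other libraries as 1 group and leaving out each library. List counts under other settings were chosen after seeing the data.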

Additional observations from a re-analysis of the deposited data

Results flagged for a closer look

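A single library stood far from the rest of its region in 27 of 460 sets of values looked at (a named gene in a region), where chance gives about 1 in 20, or 23. No explanation was tested for any of them.

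In the prefrontal cortex, Dpp4 was high in replicate 1 at 8.77 CPM (others 5.54 to 6.27), Nkx2-1 was high in replicate 1 at 0.704 CPM and Kcnf1 was high in replicate 5 at 285 CPM. Replicate 3 was low in Gpr101 at 0.179 CPM and high in Ccdc153 at 0.107 CPM (others up to 0.0264).

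In the nucleus accumbens, replicate 2 was high in Slc22a6 at 3.07 CPM, in Dpp4 at 1.17 CPM, in Lhx9 at 0.512 CPM and in Col1a2 at 13.4 CPM. Replicate 3 was high in Gfap at 83.5 CPM (others 24.9 to 31.3) and low in Mef2c at 120 CPM, replicate 4 was high in Grm2 at 7.26 CPM and low in Cx3cr1 at 45.6 CPM, and replicate 5 was high in Sla at 4.58 CPM. Replicate 1 was low in Ak7 at 0.8 CPM and in Ttr at 0.182 CPM.

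In the ventral hippocampus, replicate 2 was high in Arhgap25 at 2.85 CPM and in Krt80 at 0.813 CPM and low in Gpr101 at 2.57 CPM, replicate 1 was high in Drd2 at 6.35 CPM (others 2.19 to 2.55), and replicate 4 was low in Tox at 3.86 CPM and in Slc6a13 at 3.29 CPM. In the basolateral amygdala, Ttr was high in replicate 4 at 681 CPM (others 2.37 to 9.85) and Mal in replicate 3 at 144 CPM. Replicate 5 was low in Nts at 13.8 CPM and in Sp9 at 10.1 CPM, and high in Kcnf1 at 267 CPM.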

How the results depend on the processing

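The counts of genes higher (1415) or lower (1062) than each other region stayed within 1.5 times under median-ratio scaling, no filter on low counts, DESeq2 and the sample-number series as a covariate (1272 to 1669 higher, 1002 to 1298 lower), and were 1288 to 1402 and 970 to 1079 with 1 library left out. With median-ratio scaling 1392 of the 1415 and 1033 of the 1062 genes were the same, and the median of all genes was -0.011 in place of -0.016. Treating the 14 other libraries as 1 group gave 2168 higher and 2356 lower genes in place of 4155 and 4089, since differences among the 3 regions then enter the spread. In that fit 18 genes followed by name kept their direction but were not called by edgeR's test, with a log2 fold change (adjusted p) of Slc17a7 1.00 (0.388), Fezf2 1.59 (0.0553), Tle4 -0.48 (0.335), Nr2f1 0.56 (0.472), Drd1 -3.15 (0.0501), Rarb -2.74 (0.0652), Adcy5 -1.99 (0.0511), Prox1 -2.17 (0.0587), Rspo2 1.64 (0.139), Kcnc2 1.00 (0.0577), Fos 0.89 (0.0944), Bdnf 0.75 (0.537), Adra1d 1.07 (0.43), Grm2 1.34 (0.114), Grm8 1.35 (0.148), Gabra3 0.85 (0.193), Grp 0.88 (0.509) and Kcnf1 0.89 (0.0614). Of 115 genes followed by name, 23 of 2758 values changed their call and 0 changed sign. For the list counts chosen after seeing the data, without prefrontal replicate 5 or with the series covariate 5 in place of 3 axon guidance genes were lower than each region. The difference between defeated and control mice had 0 genes under every alternative run. The labels number each library once and share no replicate number between regions, so no replicate block was fitted; the covariate for the series of sample numbers gave 1669 higher and 1298 lower genes. Depth limits the genes with under 20 counts over the 5 prefrontal libraries.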
